A study of Homo sapiens with 9 samples.

Results

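The 44 genes described here are the hypoxia-inducible factors with their known targets and the enzymes and transporters of glycolysis, out of 31558 genes listed for HCT116, a human colorectal cancer (CRC) cell line. They were chosen by gene symbol from textbook membership, with earlier results of these data known. Of them 21 are factors, oxygen sensors or targets of the hypoxia pathway (the hypoxia set) and 23 carry glucose from uptake to lactate export (the glycolysis set). RNA was sequenced from 3 groups of HCT116 cells, each with 3 biological replicates. CRLM1-OE cells overexpressed the long noncoding RNA CRLM1 from a pTSB vector, Ctrl cells carried the empty plasmid, and Anti cells carried the antisense sequence of CRLM1 as a further control. All the cells are of one parent line, the labels do not say whether the plasmids were carried transiently or stably in these samples, and neither the labels nor the methods name an exposure to low oxygen. The methods do not say whether the replicates of a group were separate cultures or extractions. Part of the spread between these samples may therefore be technical. The p-values rest on a spread that the fit shared largely across genes. They do not measure the spread of each gene's own samples.

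In oxygen-rich cells the alpha subunits of the hypoxia-inducible factor (HIF) are hydroxylated on prolines by the EGLN enzymes and are then destroyed. When oxygen falls, the subunits persist, pair with ARNT and bind a short DNA core in promoters and enhancers of genes for glucose uptake, glycolysis, acid export, vessel growth and mitochondrial turnover. Many colorectal tumors take up glucose and release lactate even when oxygen is present, and several glycolysis genes also answer to other factors. The values below are RNA levels, so neither HIF protein nor metabolic flux was measured.

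The deposited counts summed to between 33302292 and 44514692 per sample. At these depths 3 counts, the floor used here, corresponded to 0.0674 to 0.0901 CPM (counts per 1000000 counts of the library), which covers counting error only. The CRLM1 gene had between 32751 and 38704 counts in the CRLM1-OE samples, 0 in every Ctrl sample and between 1540 and 1951 in the Anti samples, and from which strand the reads in Anti came was not tested. The 10 colon epithelial markers summed to between 9514 and 9591 normalised CPM in CRLM1-OE, 11630 and 11717 in Ctrl, and 9614 and 9692 in Anti, mostly from KRT19, KRT8 and KRT18. KRT18, a keratin of simple epithelia, was lower in CRLM1-OE, at -0.996 against Ctrl and -0.9998 against Anti on the log2 scale. EPCAM, KRT8, CDH1 and CDX2 also had their lowest mean in CRLM1-OE, with CDH1 and CDX2 overlapping Ctrl. KRT19 lay between the controls, with a mean of 4717 normalised CPM against 5323 in Ctrl and 3622 in Anti. ELF3 was highest in CRLM1-OE, at 470 against 444 in Ctrl and 384 in Anti. Of the other markers LGALS4, VIL1 and CDX1 were close to absent, with mean counts of at most 6.33. Markers of leukocytes, endothelium, fibroblasts and hepatocytes summed to at most 19.0 normalised CPM each. The fibroblast sum was 15.2 to 18.2 normalised CPM in CRLM1-OE and 9.41 to 10.8 in the controls, nearly all of it COL1A1. The hepatocyte sum was 7.77 to 8.19 in CRLM1-OE and 16.5 to 19.0 in the controls, nearly all of it SERPINA1. The other hepatocyte markers, ALB, APOA1 and TTR, had at most 4 counts in any sample. The part of these markers in the results below was not tested. The members together took 2.86 to 2.90% of the counts in CRLM1-OE, 3.49 to 3.52% in Ctrl and 2.67 to 2.68% in Anti. Whether strand was used in counting is not given in the sources used here, and 21 members share exon bases with an annotated gene on the other strand (GENCODE 44). On the same strand 10 members do, among them EGLN1 (3004 of 5381 exon bases), ALDOA (1639 of 3829) and LDHB (997 of 2983). How reads in shared bases were counted is not given either. Only uniquely mapped reads were counted, and 38 named copies of 13 members were listed separately, at no more than 2.27% of the member's own counts.

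HIF binds DNA at the core ACGTG or GCGTG. To show where this core stands, the RefSeq window of 250 bases before and 50 bases after each annotated start (GRCh38.p14) was searched on both strands, so that the core can also read CACGT or CACGC, and a CACGTG counts on each strand. Windows were found for 39 members, and 36 of them (92.3%) had a core in at least 1 window, against 52.4% of all genes and 61.9% of protein-coding genes with a window, which have fewer windows per gene. Over single windows the share was 71.6% (53 of 74) for the members, against 48.4% of all 35116 windows and 54.7% of the windows of protein-coding genes. No window was found for BNIP3L, NDRG1, SLC16A1, SLC2A3 and VEGFA. The stretches below, from RefSeq on GRCh38.p14, are shown for 6 members with large differences described below, and for 3 members that were higher in CRLM1-OE than in both controls (HK2, ADM and EGLN1). Each is written 5′ to 3′ on the gene's own strand, lies before the start, and has the core in capitals. EGLN3 is shown as a member without a core, and for genes with several annotated starts (LDHA and HK2) the first is used.
CA9 (chr9:35673897-35673926, forward strand): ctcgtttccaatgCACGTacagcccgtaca
EGLN3 (chr14:33951075-33951104, reverse strand): taagggccggacctcagcgtctcccggagt
P4HA1 (chr10:73096936-73096965, reverse strand): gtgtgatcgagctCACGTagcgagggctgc
LDHA (chr11:18394452-18394531, forward strand): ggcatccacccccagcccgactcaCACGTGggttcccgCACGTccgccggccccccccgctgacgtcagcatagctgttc
ALDOC (chr17:28576907-28576936, reverse strand): cccccggaggagtCACGTagctctgcgaca
ENO2 (chr12:6914449-6914478, forward strand): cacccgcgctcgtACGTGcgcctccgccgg
HK2 (chr2:74834041-74834120, forward strand): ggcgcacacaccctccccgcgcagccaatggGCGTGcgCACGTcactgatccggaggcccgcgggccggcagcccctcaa
ADM (chr11:10304934-10305013, forward strand): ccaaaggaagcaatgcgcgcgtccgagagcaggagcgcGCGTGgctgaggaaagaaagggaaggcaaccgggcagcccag
EGLN1 (chr1:231422288-231422367, reverse strand): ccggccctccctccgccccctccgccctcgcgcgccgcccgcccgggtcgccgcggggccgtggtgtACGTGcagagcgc
The CA9 core begins 18 bases before the start and the EGLN1 core 13 bases before it. EGLN3, which was lower in CRLM1-OE, had no core in its window, and HK2 and LDHA, which differed in opposite directions from Ctrl, both had several. Of the members lower in CRLM1-OE than in Ctrl, 23 of 24 with a window had a core, of those that were higher 7 of 7, and of those not called 5 of 7, so a core was common among the members whatever their direction. The match of letters is a description and does not show binding.

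Against Ctrl, more members were lower than higher in CRLM1-OE, in both sets. One member, LOX, which crosslinks collagen, was listed with 2 counts in a single Ctrl sample and 0 elsewhere, and the other 43 were above the floor. With edgeR's quasi-likelihood test and Benjamini-Hochberg adjustment over all genes, 28 of the 43 were lower at an adjusted p of at most 0.05 and 7 were higher. Over all 29846 genes tested, 16.8% were lower and 15% higher by the same rule. Among the 11716 genes that averaged 100 or more counts (the well-covered genes, nearer to the members in depth), 38.8% were lower and 29.2% higher. The 43 members averaged from 103 (CA9) to 289630 (GAPDH) counts, most of them far above 100. This background therefore does not match them in depth either. In the hypoxia set 12 of 20 were lower and 3 higher, with a median log2 fold change of -0.29, and in the glycolysis set 16 of 23 were lower and 4 higher, with a median of -0.37. The median over well-covered genes was -0.045. Adjusted p-values are given down to 1e-300, and smaller ones are written as at most that value. Scaling by total counts in place of TMM factors moved that median to 0.096, and the members then split into 24 lower and 14 higher, with set medians of -0.15 and -0.23. Under that scaling TPI1, ANGPTL4, PFKL and PFKM were no longer called lower, and VEGFA, CA12, P4HA2, BHLHE40, HK1, PFKFB4 and PGAM1 were called higher. At a fold change of at least 2 as well, 2 members (CA9 and EGLN3) were lower and 0 were higher, where 0.915% and 2.5% of all genes were.

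Against Anti the members divided evenly. Here 19 members were lower and 19 higher in CRLM1-OE, where the background was 18.5% lower and 17.1% higher over all genes, and 40.2% and 33.9% over well-covered genes. The medians were -0.063 in the hypoxia set and -0.0068 in the glycolysis set, against -0.036 for well-covered genes. At 2-fold CA9 was lower and ALDOC was higher, where 2.56% and 3.09% of all genes were called in those directions.

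The controls differed from each other as well. In Anti 31 members were lower and 6 higher than in Ctrl, where 12.2% and 11.5% of all genes, and 28.9% and 25.3% of well-covered genes, were called. The medians were -0.22 in the hypoxia set and -0.36 in the glycolysis set, against -0.0067 for well-covered genes. With total counts that background median was 0.098 and the members split into 24 lower and 10 higher. ENO2 was the single member lower at 2-fold, where 0.38% of all genes were, and 0 members were higher at 2-fold, where 0.683% of all genes were. The 3 comparisons share their samples, so their values are given side by side and are not independent.

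**Figure D1:**
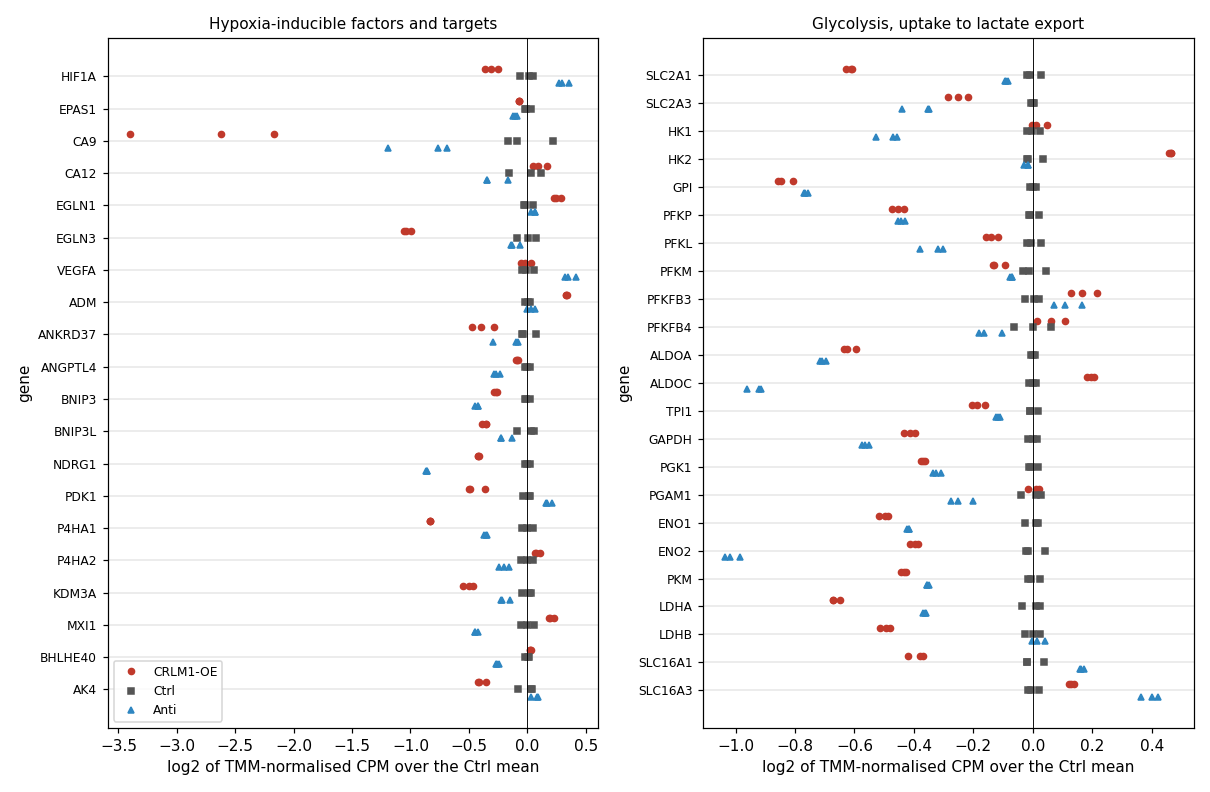
Each point is the log2 ratio of a sample's TMM-normalised CPM to the Ctrl mean, for the 20 hypoxia set members above the floor (left) and the 23 glycolysis set members (right), in CRLM1-OE (red circles), Ctrl (grey squares) and Anti (blue triangles). CA9 and EGLN3 lie far to the left in CRLM1-OE, HK2, ADM and EGLN1 lie to the right of both controls, and for ALDOC and ENO2 it is Anti that lies far to the left.

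Set against all 6 control samples, the 3 CRLM1-OE samples lay below them for 18 of the 43 members and above them for 7. Of the well-covered genes, 32.1% lay below and 23.8% above. For 10 members CRLM1-OE lay between the controls without overlap, and for 8 it overlapped a control. The shares of other genes in these positions were not computed. The members below both controls included HIF1A, CA9, EGLN3, PDK1, AK4, BNIP3L, P4HA1 and KDM3A of the hypoxia set, and SLC2A1, GPI, PFKM, TPI1, PGK1, ENO1, PKM, LDHA, LDHB and SLC16A1 of the glycolysis set. Those above both were EGLN1, ADM, P4HA2, MXI1, BHLHE40, HK2 and ALDOC.

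The genes for the HIF subunits and their hydroxylases did not move together. HIF1A, the oxygen-regulated alpha subunit, had normalised CPM of 31.4, 32.7 and 30.3 in CRLM1-OE, against 39.3, 40.2 and 37.4 in Ctrl and 49.8, 47.8 and 47.1 in Anti. The groups did not overlap, with CRLM1-OE lowest and Anti highest. The log2 fold change was -0.31 (SE 0.0465, adjusted p = 2.25e-10) against Ctrl and -0.62 (SE 0.0432, adjusted p = 9.56e-45) against Anti, and Anti was above Ctrl by 0.28 (SE 0.0427, adjusted p = 4.52e-10). EPAS1, the paralogous alpha subunit, had normalised CPM of 87.8, 87.7 and 87.9 in CRLM1-OE, against 90.8, 91.5 and 94.3 in Ctrl and 84.4, 86.9 and 85.4 in Anti and log2 fold changes of -0.069 (SE 0.0324, adjusted p = 0.0986) against Ctrl and 0.041 (SE 0.0306, adjusted p = 0.359) against Anti, neither past the threshold. EGLN3, a prolyl hydroxylase whose own gene is a HIF target, had normalised CPM of 11.9, 11.7 and 12.2 in CRLM1-OE, against 22.9, 25.6 and 24.4 in Ctrl and 22.1, 23.3 and 22.1 in Anti. All 3 CRLM1-OE samples lay far below the 6 controls, which overlapped each other. Its log2 fold change was -1.03 (SE 0.0645, adjusted p = 2.92e-55) against Ctrl and -0.91 (SE 0.0647, adjusted p = 5.81e-44) against Anti, and the first lay just past the 2-fold limit, since it was -0.98 without Ctrl replicate 2 and -0.88 with total counts, both under 2-fold. EGLN1, the hydroxylase with the main role in oxygen sensing, differed the other way. Its normalised CPM were 96.6, 93.1 and 94.0 in CRLM1-OE, against 81.9, 77.5 and 78.4 in Ctrl and 81.1, 83.1 and 82.9 in Anti, and it rose by 0.25 (SE 0.0328, adjusted p = 8.84e-14) on the log2 scale against Ctrl and 0.20 (SE 0.0303, adjusted p = 1.16e-10) against Anti.

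CA9, a cell-surface carbonic anhydrase that helps cells export acid and is among the most used markers of hypoxia, had the largest change between CRLM1-OE and either control of the members above the floor. Its counts were 47, 16 and 31 in CRLM1-OE, 182, 193 and 151 in Ctrl and 115, 79 and 105 in Anti, and its normalised CPM were 1.07, 0.456 and 0.782 in CRLM1-OE, against 4.30, 5.63 and 4.53 in Ctrl and 2.84, 2.10 and 2.99 in Anti. The groups did not overlap, and the highest CRLM1-OE value was below the lowest Anti value. The log2 fold change was -2.60 (SE 0.17, adjusted p = 7.23e-51) against Ctrl, a ratio of 0.165, and -1.74 (SE 0.199, adjusted p = 2.1e-17) against Anti, while Anti against Ctrl gave -0.89 (SE 0.133, adjusted p = 4.45e-10). On log2 FPKM with a pseudocount of 1, the difference from Anti stayed past the threshold in limma but under 2-fold, at -0.77. CA9 shares 571 exon bases with ARHGEF39, a gene on the other strand, which had 161 to 219 counts in the 9 samples, with overlapping groups. CA12, the other membrane-bound carbonic anhydrase here, had normalised CPM of 9.69, 8.90 and 9.16 in CRLM1-OE, against 9.31, 8.78 and 7.73 in Ctrl and 6.77, 6.76 and 7.68 in Anti. It overlapped between CRLM1-OE and Ctrl (log2 fold change 0.10, SE 0.0878, adjusted p = 0.446) and was higher than in Anti by 0.40 (SE 0.0904, adjusted p = 5.07e-05).

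The secreted factors differed in direction. ADM, the vasodilator peptide adrenomedullin, had normalised CPM of 427, 429 and 426 in CRLM1-OE, against 344, 339.6 and 334 in Ctrl and 347, 339.6 and 354 in Anti and rose by 0.33 (SE 0.0227, adjusted p = 2.45e-47) against Ctrl and 0.30 (SE 0.02, adjusted p = 4.71e-51) against Anti. VEGFA, the main growth factor of blood vessels, had normalised CPM of 128, 136 and 130.4 in CRLM1-OE, against 137, 129 and 131 in Ctrl and 166, 168 and 176 in Anti. CRLM1-OE and Ctrl overlapped and Anti was above both. VEGFA was not past the threshold against Ctrl (log2 fold change -0.013, SE 0.029, adjusted p = 0.778), a value that turned to 0.13 and passed it with total counts. Against Anti it was lower, at -0.37 (SE 0.0255, adjusted p = 1.06e-46). ANGPTL4, a secreted inhibitor of lipoprotein lipase, differed by -0.088 (SE 0.0242, adjusted p = 0.00123) against Ctrl, a value that turned to 0.054 with total counts and missed the threshold without Ctrl replicate 3 (-0.057), and by 0.18 (SE 0.022, adjusted p = 7.25e-15) against Anti.

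All 4 mitochondrial members were lower in CRLM1-OE than in Ctrl, where 38.8% of well-covered genes were. PDK1, the kinase that limits pyruvate oxidation in the mitochondrion by inhibiting pyruvate dehydrogenase, had normalised CPM of 36.2, 39.7 and 36.0 in CRLM1-OE, against 51.9, 51.3 and 49.6 in Ctrl and 57.3, 56.9 and 58.9 in Anti. CRLM1-OE lay below both controls, with log2 fold changes of -0.45 (SE 0.0425, adjusted p = 4.98e-25) and -0.63 (SE 0.04, adjusted p = 7.38e-54). AK4, an adenylate kinase of the matrix, showed -0.40 (SE 0.0334) against Ctrl and -0.46 (SE 0.0308) against Anti. The mitophagy receptors BNIP3 and BNIP3L were lower than in Ctrl, at -0.27 and -0.36, and parted against Anti, with 0.16 (SE 0.0289, adjusted p = 8.63e-08) and -0.17 (SE 0.0345, adjusted p = 5.43e-06).

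The collagen hydroxylase subunits parted too. P4HA1, a catalytic subunit of collagen prolyl hydroxylase, had normalised CPM of 184, 184 and 185 in CRLM1-OE, against 339, 328 and 317 in Ctrl and 256, 259 and 254 in Anti, with the 3 groups clear of each other. Its log2 fold change in CRLM1-OE was -0.83 (SE 0.0248, adjusted p = 1.17e-242) against Ctrl and -0.47 (SE 0.0229, adjusted p = 8.21e-94) against Anti. P4HA2, its paralog, had normalised CPM of 63.4, 65.0 and 63.1 in CRLM1-OE, against 62.4, 58.2 and 60.1 in Ctrl and 54.0, 50.8 and 52.4 in Anti, with log2 fold changes of 0.083 (SE 0.0371, adjusted p = 0.0774) against Ctrl and 0.29 (SE 0.0363, adjusted p = 2.31e-14) against Anti. The first passed the threshold without Ctrl replicate 1, at 0.12.

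Among nuclear regulators and other targets, KDM3A, a histone demethylase, had normalised CPM of 60.8, 62.4 and 58.5 in CRLM1-OE, against 86.9, 87.5 and 83.1 in Ctrl and 73.7, 77.4 and 73.2 in Anti with log2 fold changes of -0.50 (SE 0.035, adjusted p = 3.1e-45) against Ctrl and -0.30 (SE 0.034, adjusted p = 6.79e-18) against Anti. MXI1, an antagonist of MYC, was higher in CRLM1-OE, and its normalised CPM were 149.8, 146 and 146 in CRLM1-OE, against 128, 133 and 123 in Ctrl and 94.0, 93.9 and 95.8 in Anti, with log2 fold changes of 0.20 (SE 0.0286, adjusted p = 1.25e-11) and 0.64 (SE 0.0274, adjusted p = 1.03e-119). In MXI1 the largest gap lay between CRLM1-OE and Anti, with Ctrl in between. NDRG1, a stress-responsive gene with the highest FPKM of the hypoxia set, had normalised CPM of 2175, 2178 and 2165 in CRLM1-OE, against 2959, 2895 and 2870.1 in Ctrl and 1599, 1606 and 1607 in Anti. CRLM1-OE stood between the controls, at -0.42 (SE 0.0161, adjusted p = 8.09e-147) against Ctrl and 0.44 (SE 0.0145, adjusted p = 2.42e-201) against Anti, and Anti against Ctrl gave -0.88 (SE 0.0167, adjusted p at most 1e-300). The repressor BHLHE40 had log2 fold changes of 0.026 (SE 0.0209, adjusted p = 0.423) against Ctrl and 0.29 (SE 0.0185, adjusted p = 7.63e-52) against Anti. ANKRD37, an ankyrin-repeat gene that shares exon bases with a gene on the other strand, was lower, at -0.38 (SE 0.0582, adjusted p = 3.67e-10) against Ctrl and -0.23 (SE 0.0589, adjusted p = 0.000465) against Anti. Its samples overlapped with those of Anti, and the second call was lost in limma on log2 FPKM (adjusted p = 0.113 with a pseudocount of 1).

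**Figure D2:**
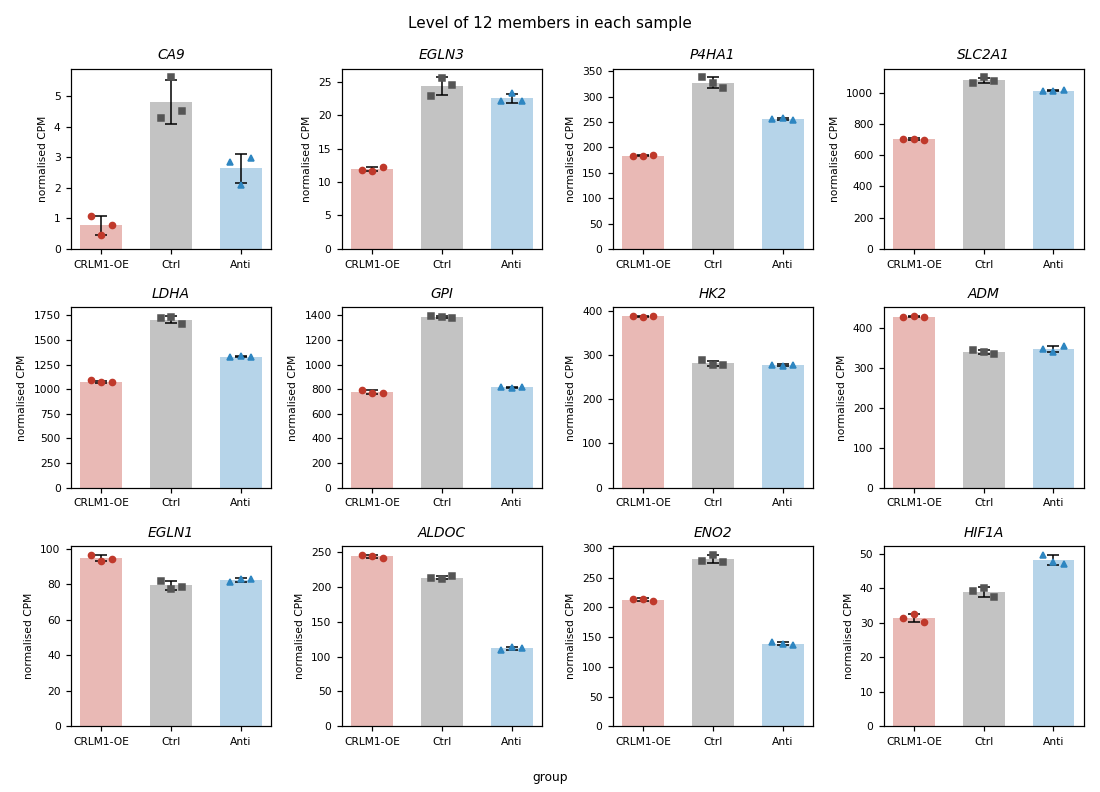
Bars give the mean TMM-normalised CPM (scaled counts) of 12 members in CRLM1-OE, Ctrl and Anti, error bars the SD of 3 samples and points the samples; each panel has its own axis from 0. In CA9, EGLN3, P4HA1, SLC2A1, LDHA and HIF1A the CRLM1-OE samples are lowest, in HK2, ADM and EGLN1 they are highest, GPI is far below Ctrl in CRLM1-OE and Anti, and ALDOC and ENO2 are lowest in Anti.

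Of the glucose transporters, SLC2A1, which carries basal uptake in many cells, had normalised CPM of 706, 707 and 697 in CRLM1-OE, against 1064, 1101 and 1073 in Ctrl and 1013, 1010.4 and 1019 in Anti. CRLM1-OE was below all 6 controls, with log2 fold changes of -0.62 (SE 0.0195, adjusted p = 1.66e-216) against Ctrl and -0.52 (SE 0.0169, adjusted p = 3.58e-208) against Anti. SLC2A3, a transporter of higher affinity, lay between the controls, at -0.25 (SE 0.0335, adjusted p = 7.38e-13) against Ctrl and 0.13 (SE 0.033, adjusted p = 0.000208) against Anti.

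From hexokinase to the triose phosphates, 6 of 11 genes were lower and 3 higher in CRLM1-OE than in Ctrl. The background among well-covered genes was 38.8% lower and 29.2% higher. HK2, the inducible hexokinase, had normalised CPM of 388, 386 and 388 in CRLM1-OE, against 288, 278 and 278 in Ctrl and 278, 275 and 278 in Anti, highest in CRLM1-OE and overlapping between the controls. It rose by 0.46 (SE 0.0234, adjusted p = 3.94e-85) against Ctrl and 0.49 (SE 0.0207, adjusted p = 3.01e-120) against Anti. HK1, the constitutive hexokinase, had normalised CPM of 208, 206 and 214 in CRLM1-OE, against 210.4, 206 and 204 in Ctrl and 149, 144 and 151 in Anti. It was not past the threshold against Ctrl (0.018, SE 0.0258, adjusted p = 0.634), and Anti stood low, at -0.51 (SE 0.0267, adjusted p = 6.26e-79) against Ctrl. GPI, which turns glucose phosphate into fructose phosphate, had normalised CPM of 793, 770.3 and 765 in CRLM1-OE, against 1396, 1387 and 1376 in Ctrl and 819.9, 813 and 815 in Anti. Both CRLM1-OE and Anti lay far below Ctrl, at -0.84 (SE 0.0189, adjusted p at most 1e-300) and -0.79 (SE 0.0188, adjusted p at most 1e-300). CRLM1-OE differed from Anti by -0.069 (SE 0.0171, adjusted p = 0.000236), a call that was lost with total counts (-0.0098).

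The phosphofructokinase genes, which encode the committed step, were lower than in Ctrl with PFKP ahead. PFKP showed -0.45 (SE 0.0203, adjusted p = 2.34e-107) against Ctrl and -0.0068 (SE 0.0182, adjusted p = 0.806) against Anti, and the other turned to 0.052 with total counts. PFKL (-0.14, SE 0.027) and PFKM (-0.12, SE 0.0299) differed less from Ctrl, and both turned to values just above 0 with total counts (0.0033 and 0.021) and lost their calls in limma on log2 FPKM. PFKFB3, which makes the activator of that step, was higher than in Ctrl by 0.17 (SE 0.0327, adjusted p = 1.17e-06) and had 0.059 (SE 0.0299, adjusted p = 0.125) against Anti. PFKFB4, a related enzyme, had 0.063 (SE 0.0414, adjusted p = 0.29) against Ctrl and 0.21 (SE 0.041, adjusted p = 7.8e-07) against Anti.

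The aldolase genes moved apart. ALDOA, the abundant aldolase, had normalised CPM of 3975, 3862 and 3892 in CRLM1-OE, against 6008, 6026 and 5971 in Ctrl and 3658, 3672 and 3705 in Anti. Ctrl stood well above both other groups, and the log2 fold change of CRLM1-OE was -0.62 (SE 0.0143, adjusted p at most 1e-300) against Ctrl and 0.092 (SE 0.0127, adjusted p = 3.13e-12) against Anti. ALDOC, the aldolase known from brain, had normalised CPM of 246, 245 and 242 in CRLM1-OE, against 213, 212 and 215 in Ctrl and 109.7, 113 and 113 in Anti. CRLM1-OE was highest and Anti lowest by a wide margin, and the log2 fold change was 0.20 (SE 0.0252, adjusted p = 9.69e-14) against Ctrl and 1.13 (SE 0.0247, adjusted p at most 1e-300) against Anti, with -0.96 (SE 0.0275, adjusted p = 6.18e-260) for Anti against Ctrl. TPI1, the triose phosphate isomerase, was lower, at -0.18 (SE 0.0202, adjusted p = 8.07e-19) against Ctrl and -0.064 (SE 0.0176, adjusted p = 0.000967) against Anti, and both calls were lost with total counts (-0.043 and -0.0054).

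Below the triose phosphates, 5 of 6 genes were lower in CRLM1-OE than in Ctrl and 0 were higher. Among well-covered genes 38.8% were lower and 29.2% higher. GAPDH, which the study used as the reference gene of its quantitative PCR, had normalised CPM of 6634, 6567 and 6475 in CRLM1-OE, against 8634, 8826 and 8749 in Ctrl and 5865, 5963 and 5912 in Anti. The 3 groups were clear of each other, with Ctrl highest and Anti lowest, and CRLM1-OE differed by -0.41 (SE 0.0132, adjusted p = 8.13e-211) from Ctrl and 0.15 (SE 0.0115, adjusted p = 4.95e-39) from Anti. PGK1, which makes the first ATP of the payoff phase, had -0.37 (SE 0.0212) against Ctrl, ENO1, the main enolase, -0.50 (SE 0.0148), and PKM, which makes pyruvate, -0.43 (SE 0.0165). Against Anti these genes had -0.042, -0.078 and -0.077, of which PGK1 was not past the threshold, and ENO1 and PKM were not past it with total counts. PGAM1, the mutase between them, was not past the threshold against Ctrl (0.0068, SE 0.0209, adjusted p = 0.842) and was higher than in Anti by 0.25 (SE 0.0185, adjusted p = 1.05e-40). ENO2, the enolase known from neurons and a hypoxia target, had normalised CPM of 215, 214 and 211 in CRLM1-OE, against 278, 289 and 276 in Ctrl and 142, 139 and 137 in Anti. CRLM1-OE lay between the controls, at -0.40 (SE 0.0248, adjusted p = 5.46e-56) against Ctrl and 0.62 (SE 0.0244, adjusted p = 1.21e-138) against Anti. Anti against Ctrl gave -1.04 (SE 0.0259, adjusted p at most 1e-300), and it fell just short of 2-fold with total counts, at -0.93.

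At the lactate step all 4 genes were lower in CRLM1-OE than in Anti, and 3 were lower than in Ctrl. Of well-covered genes, 40.2% were lower than in Anti and 38.8% lower than in Ctrl. LDHA, the dehydrogenase subunit that favors lactate, had normalised CPM of 1089, 1070.4 and 1072 in CRLM1-OE, against 1721, 1735 and 1665 in Ctrl and 1322, 1332 and 1327 in Anti, in 3 groups clear of each other. The log2 fold change was -0.66 (SE 0.018, adjusted p = 1.8e-293) against Ctrl and -0.30 (SE 0.0158, adjusted p = 1.69e-77) against Anti. LDHB, the subunit that favors pyruvate, had normalised CPM of 347, 355 and 352 in CRLM1-OE, against 504, 496 and 487 in Ctrl and 495, 501 and 510.2 in Anti, where the controls overlapped. CRLM1-OE was below both, at -0.50 (SE 0.0223, adjusted p = 4.6e-107) against Ctrl and -0.51 (SE 0.0196, adjusted p = 9.18e-148) against Anti. Anti against Ctrl gave -0.0077 (SE 0.0214, adjusted p = 0.842), a value that turned to 0.097 with total counts. The monocarboxylate transporter SLC16A1 had normalised CPM of 77.9, 77.4 and 75.3 in CRLM1-OE, against 103, 99.5 and 99.4 in Ctrl and 114, 112 and 113 in Anti and was lower than in both controls, at -0.39 (SE 0.0326, adjusted p = 1.39e-31) against Ctrl and -0.55 (SE 0.0296, adjusted p = 1.73e-75) against Anti. The lactate exporter SLC16A3 had normalised CPM of 296, 295 and 298 in CRLM1-OE, against 269.5, 268 and 275 in Ctrl and 362, 349 and 357 in Anti, with CRLM1-OE between the controls, at 0.13 (SE 0.0241, adjusted p = 4.77e-07) against Ctrl and -0.26 (SE 0.0207, adjusted p = 2.45e-35) against Anti.

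**Figure D3:**
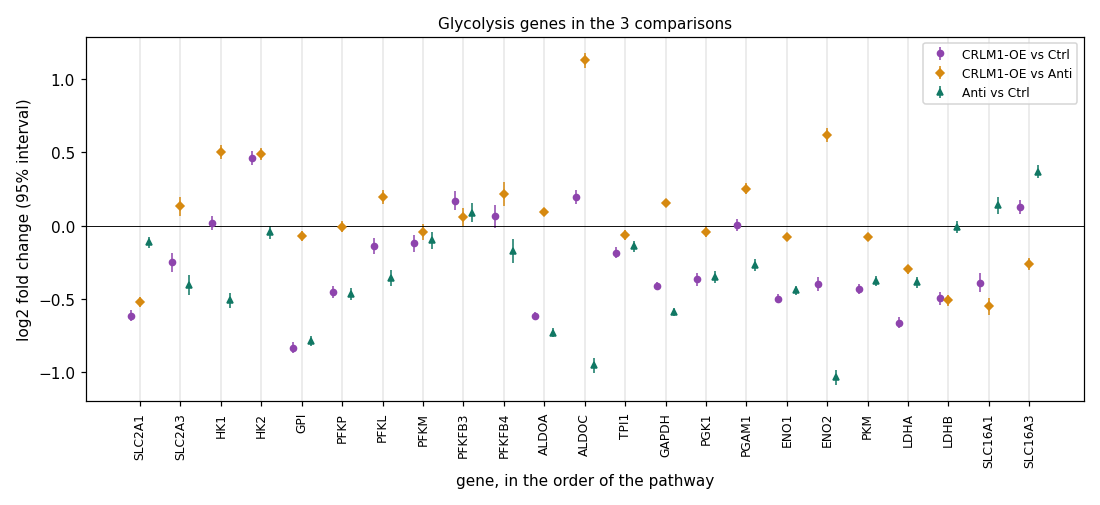
Points give the log2 fold change of the 23 glycolysis set genes in pathway order, with 95% intervals from the edgeR fit, for CRLM1-OE against Ctrl (circles), CRLM1-OE against Anti (diamonds) and Anti against Ctrl (triangles). Most circles and triangles lie below 0 together. Among the genes below 0 against both controls, SLC2A1, LDHA, LDHB and SLC16A1 lie furthest from it against Anti. HK2 and ALDOC are among those above 0 against both.

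Within pairs and families of related genes, the share of summed FPKM (fragments scaled by length and depth, by the authors) shows which copy carried the RNA. With 3 samples against 3, an exact two-sided permutation test cannot give a p below 0.1, and each difference between groups given here had that p unless its own is printed. HK2 made up 57.2% ± 0.39 of the hexokinase FPKM in CRLM1-OE, against 49.5% ± 0.213 in Ctrl and 57.5% ± 0.489 in Anti (SD, n = 3 each). The shares of CRLM1-OE and Anti overlapped (exact permutation p = 0.6), with HK2 the higher in CRLM1-OE and HK1 the lower in Anti. P4HA2 was 21.5% ± 0.301 of the collagen hydroxylase subunits in CRLM1-OE, against 12.6% ± 0.371 in Ctrl and 13.9% ± 0.436 in Anti, so the controls were close and CRLM1-OE stood apart.

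ALDOC held 11.4% ± 0.123 of the aldolase FPKM in CRLM1-OE, against 6.84% ± 0.083 in Ctrl and 5.92% ± 0.0798 in Anti. The carbonic anhydrases changed rank: CA12 was 75.7% ± 6.94 of the pair in CRLM1-OE, but 31.2% ± 3.61 in Ctrl and 40.6% ± 3.7 in Anti, on low levels throughout. ENO2 stayed a minor enolase, at 3.47% ± 0.00131, 3.24% ± 0.0576 and 2.17% ± 0.0411 in the same order of groups.

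LDHB was 37.9% ± 0.484 of the lactate dehydrogenase FPKM in CRLM1-OE, above the 35.2% ± 0.299 of Ctrl and below the 41.5% ± 0.354 of Anti. SLC16A3 was 77.7% ± 0.39 of the lactate transporters in CRLM1-OE, against 70.8% ± 0.61 in Ctrl and 74.0% ± 0.277 in Anti. EPAS1 was the larger part of the HIF alpha RNA, with 69.7% ± 0.805 in CRLM1-OE, against 66.1% ± 1.25 in Ctrl and 59.4% ± 0.966 in Anti, and PFKP was the main phosphofructokinase in all groups (65.1% ± 0.363, 70.0% ± 0.326 and 67.0% ± 0.466).

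**Figure D4:**
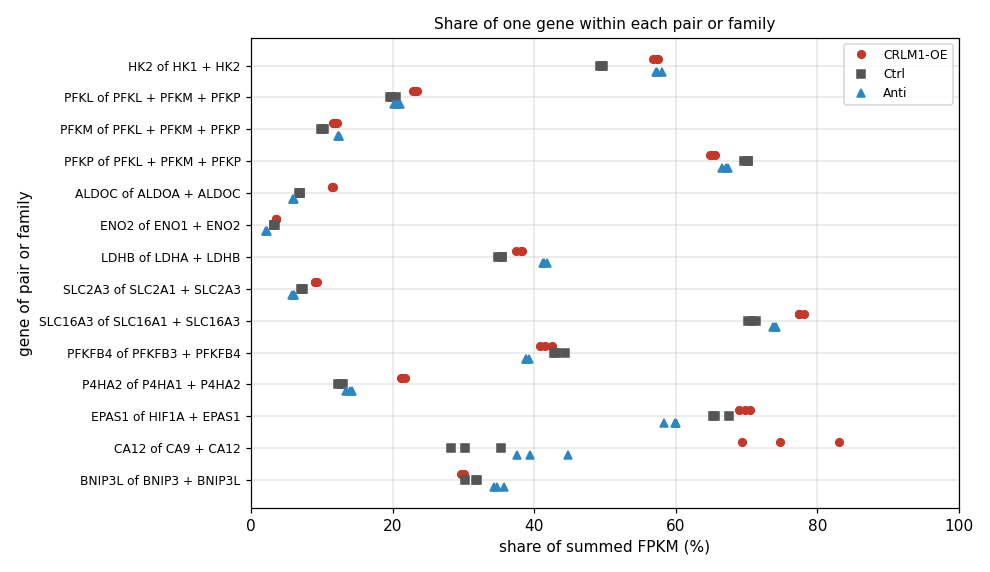
Each point is a sample's share (%) of one gene in the summed FPKM of its pair or family, for 14 shares, in CRLM1-OE (red circles), Ctrl (grey squares) and Anti (blue triangles). CRLM1-OE stands apart from both controls for P4HA2, ALDOC and CA12, and for others such as SLC2A3, PFKL and SLC16A3, while for HK2 it lies with Anti.

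Per length, the levels of the members spanned several orders of magnitude. GAPDH was highest in every group, with 2699 ± 50.5 FPKM in CRLM1-OE, against 3319 ± 18.4 in Ctrl and 2352 ± 13.1 in Anti (SD, n = 3 each). ENO1 and ALDOA came next in Ctrl, at 2243 ± 37.7 and 1204 ± 7.22 FPKM. PKM and NDRG1 followed at 659 ± 12.1 and 653 ± 13.1 FPKM, a pair of neighbours that did not differ beyond their spread. CA12 was the lowest in Ctrl and Anti (1.13 ± 0.106 and 0.977 ± 0.0723 FPKM), and CA9 the lowest in CRLM1-OE (0.437 ± 0.175 FPKM, against 2.51 ± 0.356 in Ctrl and 1.45 ± 0.259 in Anti). FPKM values carry no TMM factor, and on this scale SLC2A1 was 176 ± 2.8 in CRLM1-OE, against 249 ± 3.06 in Ctrl and 245 ± 1.18 in Anti.

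**Figure D5:**
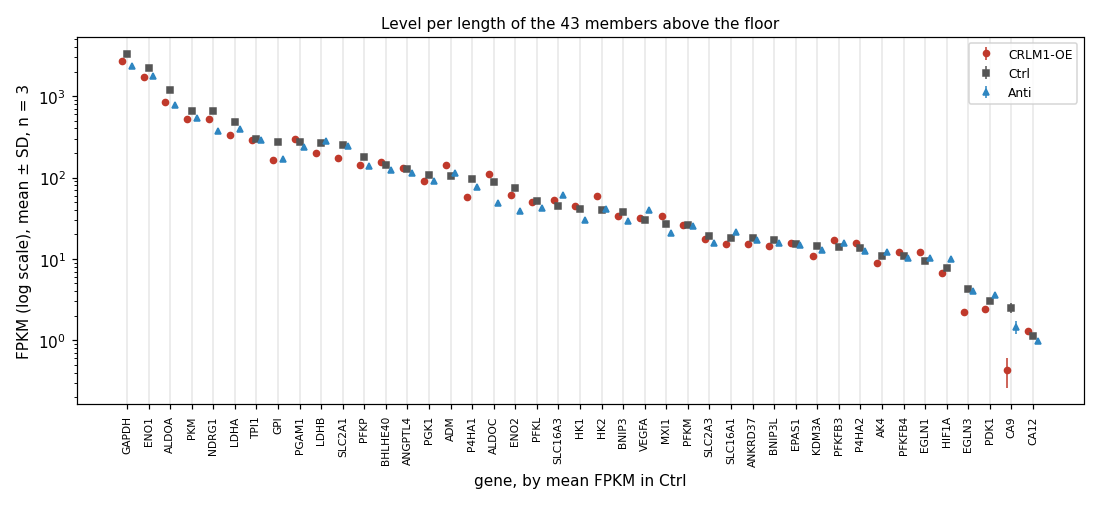
Points give the mean FPKM (log axis) with the SD of 3 samples for the 43 members above the floor, ordered by their mean in Ctrl, in CRLM1-OE (red circles), Ctrl (grey squares) and Anti (blue triangles). GAPDH is at the top in all groups, and CA9 in CRLM1-OE lies lowest of all points.

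A wider list held 37 further genes of the hypoxia pathway, chosen by their known function, with earlier results of these data known. Against Ctrl 15 were lower and 6 higher, against Anti 13 were lower and 11 higher, and in Anti against Ctrl 14 were lower and 7 higher. Over all genes tested 16.8% were lower and 15% higher against Ctrl, 18.5% and 17.1% against Anti, and 12.2% and 11.5% for Anti against Ctrl. Among well-covered genes these shares were 38.8% and 29.2%, 40.2% and 33.9%, and 28.9% and 25.3%. Well covered were 28 of the 37 against Ctrl and 27 in each other comparison, so neither background matches the list in depth. The medians over its well-covered genes were -0.064, -0.050 and -0.043. Called at 2-fold against Ctrl were TFRC and TMEM45A. TFRC, the receptor that brings in iron, had normalised CPM of 43.2, 39.9 and 41.9 in CRLM1-OE, against 99.0, 95.7 and 90.8 in Ctrl and 113, 118 and 115 in Anti, with log2 fold changes of -1.19 (SE 0.0367, adjusted p = 7.11e-228) against Ctrl and -1.46 (SE 0.0332, adjusted p at most 1e-300) against Anti. TMEM45A, a membrane protein gene, had normalised CPM of 3.69, 3.28 and 2.45 in CRLM1-OE, against 7.40, 7.35 and 6.92 in Ctrl and 5.11, 6.55 and 6.20 in Anti and a log2 fold change of -1.20 (SE 0.115, adjusted p = 3.92e-24) against Ctrl. PLOD1, a collagen lysyl hydroxylase, was lower than in Ctrl, at -0.90 (SE 0.0233, adjusted p at most 1e-300). WSB1 was higher than in Ctrl by 0.57 (SE 0.0387, adjusted p = 1.14e-47) and the histone demethylase KDM4B by 0.56 (SE 0.0347, adjusted p = 1.87e-56).

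VHL, the ubiquitin ligase subunit that recognizes hydroxylated HIF, had normalised CPM of 46.9, 48.4 and 46.9 in CRLM1-OE, against 62.3, 65.9 and 59.1 in Ctrl and 92.7, 97.8 and 94.4 in Anti. CRLM1-OE was lowest and Anti highest, at -0.40 (SE 0.039, adjusted p = 2.9e-23) against Ctrl and -1.001 (SE 0.0338, adjusted p = 3.59e-189) against Anti, and Anti was above Ctrl by 0.58 (SE 0.0341, adjusted p = 2.09e-62). Against Anti FUT11 was lower, at -0.94 (SE 0.0493, adjusted p = 4.24e-80), while SAP30 was higher by 0.61 (SE 0.0828, adjusted p = 1.57e-12), CITED2, which competes with HIF for its coactivator, by 0.59 (SE 0.036, adjusted p = 1.85e-59) and WSB1 by 0.55 (SE 0.0369, adjusted p = 1.33e-48). CXCR4, a chemokine receptor with a mean count of 90.8, was higher than in Anti by 1.31 (SE 0.164, adjusted p = 1.62e-14). STC1, which encodes a secreted glycoprotein, and TF, which encodes transferrin, were called higher than in Anti at 2-fold as well (1.75 and 1.35), on mean counts of 18.8 and 11.2, and STC1 was lower in Anti than in Ctrl, at -1.22 (SE 0.403, adjusted p = 0.0124). Between the controls NARF, FAM162A and SAP30 were lower in Anti, at -0.56, -0.51 and -0.48, and TFRC was higher, by 0.25.

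Of 45 further genes of glycolysis and pyruvate use, 43 were listed, and PGK2 and SLC2A2 were not. Against Ctrl 12 were lower and 10 higher, with 0 called at 2-fold, against Anti 13 were lower and 11 higher, and in Anti against Ctrl 9 were lower and 5 higher. Over all genes tested the shares were 16.8% lower and 15% higher, 18.5% and 17.1%, and 12.2% and 11.5% in the same order. Among well-covered genes they were 38.8% and 29.2%, 40.2% and 33.9%, and 28.9% and 25.3%. Of the 43 listed genes 30 were well covered in each comparison, so neither background matches the list in depth. The medians over its well-covered genes were -0.0097, -0.030 and 0.032, near 0 where the glycolysis set had -0.37, -0.0068 and -0.36. PCK2, a mitochondrial enzyme that makes phosphoenolpyruvate, had normalised CPM of 40.9, 41.3 and 40.3 in CRLM1-OE, against 69.8, 70.2 and 67.0 in Ctrl and 95.9, 89.7 and 93.1 in Anti. CRLM1-OE was lowest and Anti highest, and the log2 fold change was -0.76 (SE 0.0393, adjusted p = 2.03e-80) against Ctrl and -1.18 (SE 0.035, adjusted p = 3.72e-246) against Anti. TIGAR, which lowers the activator of phosphofructokinase, had normalised CPM of 6.36, 6.42 and 6.51 in CRLM1-OE, against 10.2, 9.27 and 9.02 in Ctrl and 12.6, 12.7 and 13.5 in Anti and was lower, at -0.57 (SE 0.0926, adjusted p = 7.57e-09) against Ctrl and -1.003 (SE 0.0852, adjusted p = 8.95e-31) against Anti. BPGM, a bisphosphoglycerate mutase, ran the other way, with normalised CPM of 16.1, 15.01 and 16.5 in CRLM1-OE, against 11.4, 9.74 and 10.4 in Ctrl and 7.09, 8.15 and 8.45 in Anti and log2 fold changes of 0.59 (SE 0.073, adjusted p = 6.86e-15) against Ctrl and 1.01 (SE 0.077, adjusted p = 2.84e-38) against Anti.

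The pyruvate dehydrogenase subunit DLD was lower than in Ctrl, at -0.58 (SE 0.0453, adjusted p = 1.95e-35), the lactate dehydrogenase LDHD was higher by 0.65 (SE 0.101, adjusted p = 1.08e-09) and PFKFB2 was higher by 0.50 (SE 0.0477, adjusted p = 1.33e-24). Against Anti the transporter SLC2A6 was lower, at -0.95 (SE 0.0932, adjusted p = 1.85e-23), PDK3, a pyruvate dehydrogenase kinase like PDK1, was higher by 0.74 (SE 0.0809, adjusted p = 5.62e-19) and SLC2A12 was higher by 0.73 (SE 0.107, adjusted p = 5.23e-11). PGAM2, the muscle mutase, was called higher at 2-fold against Anti (1.63), on a mean count of 5.83. Between the controls HKDC1 and SLC2A6 were higher in Anti, by 0.69 and 0.60, and PDK3 and SLC2A12 were lower, at -0.59 and -0.48.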

How the data were processed

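RNA of the 9 samples was sequenced as paired-end libraries. Per the labels and the study's methods, the authors removed low-quality reads and adaptors (FASTX-Toolkit), dropped reads shorter than 16 nt, aligned the rest to GRCh38 with TopHat2 allowing 4 mismatches, and counted uniquely mapped reads per gene of Gencode 23. The deposited counts are raw, and the deposited FPKM values were computed by the authors from uniquely mapped reads and written with 2 decimals. Use of strand, and the criterion by which genes were listed, are not given in the sources used here.

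The members and the further gene lists were chosen with earlier results of these data known. Counts were fitted with edgeR 4.0.16 (R 4.3.3) for each pair of groups, 6 samples at a time, with TMM factors, the quasi-likelihood test and Benjamini-Hochberg adjustment over all genes with at least 1 count. Higher or lower means an adjusted p of at most 0.05, and a 2-fold call also a fold change of at least 2. Every sample is given for members called at 2-fold, for the 8 members with the largest change past the threshold in each comparison (mean count at least 100) and for HIF1A, EPAS1, SLC2A1, HK2, GAPDH, ENO2, LDHA, PDK1 and VEGFA. Those of EGLN1, ADM, CA12, P4HA2, LDHB and SLC16A3 were added after their values were seen. Of the further lists, genes called at 2-fold and the 3 highest and 3 lowest past the threshold are named, except for an item that is not reported here. Alternatives were DESeq2 1.42.0, limma 3.58.1 on log2 FPKM with a pseudocount of 0.1 or 1, other scalings and filters, and each replicate left out. Replicate numbers did not pair the samples.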

Additional observations from a re-analysis of the deposited data

How the results depend on the processing

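With total counts in place of TMM factors, 14 members were higher in CRLM1-OE than in Ctrl at an adjusted p of at most 0.05. At 2-fold 0 were higher and 1 was lower, and the medians were -0.15 (hypoxia set) and -0.23 (glycolysis set). The shares of all genes called were not computed for the alternatives in this section. VEGFA (0.13), ANGPTL4 (0.054), PFKL (0.0033) and PFKM (0.021) turned positive against Ctrl, and PFKP (0.052) did against Anti. The medians against Anti were -0.0043 and 0.052. Anti against Ctrl then had 10 members higher at an adjusted p of at most 0.05, and 0 higher and 0 lower at 2-fold. The medians were -0.12 and -0.25, and PFKM (0.0054) and LDHB (0.097) turned positive. Total counts carry no correction for composition. Over all 9 samples the TMM factors were 1.046 to 1.0526 in CRLM1-OE, 0.945 to 0.955 in Ctrl and 1.0003 to 1.01 in Anti. Leaving them out moves all genes of a comparison by nearly the same amount. What lies behind the difference in these factors was not tested.

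With limma on log2 FPKM and a pseudocount of 0.1, 12 members were higher in CRLM1-OE than in Ctrl at an adjusted p of at most 0.05. At 2-fold 0 were higher and 1 was lower. The medians were -0.17 and -0.25, and ANGPTL4 turned to 0.027. Anti against Ctrl had 22 members lower and 9 higher with either pseudocount, against 24 and 10 with total counts. The medians against Anti were -0.0166 and 0.0386. Anti against Ctrl had 0 lower at 2-fold, medians of -0.13 and -0.27, and LDHB at 0.084. With a pseudocount of 1 there were again 12 members higher than in Ctrl at the adjusted p and 1 lower at 2-fold, with medians of -0.16 and -0.25 and ANGPTL4 at 0.027. Against Anti 0 members were lower at 2-fold, since CA9 fell short, with medians of -0.0157 and 0.0384, and Anti against Ctrl had 0 lower at 2-fold, medians of -0.11 and -0.26, and LDHB at 0.084.

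Filters and pooling moved medians only slightly. The glycolysis median against Ctrl was -0.35 with edgeR's expression filter and -0.38 with all 9 samples in the fit, and with at least 10 counts in every sample the medians against Ctrl were -0.26 and -0.34 and the glycolysis median against Anti 0.0073. Leaving out each replicate gave glycolysis medians of -0.37 to -0.35 against Ctrl, -0.0164 to 0.0094 against Anti and -0.38 to -0.34 for Anti against Ctrl, and hypoxia medians of -0.24 to -0.19 for the latter. The 2-fold count against Ctrl was 1 to 2, and it was 1 without Ctrl replicate 2, where EGLN3 fell short. Over all member results with a replicate left out, 761 kept their call, 8 lost it and 5 gained it, and DESeq2 changed 3 of 129. Same-numbered samples did not deviate together (r from -0.023 to 0.075 over 9 pairs, and -0.068 to 0.036 over 18 pairs of different numbers), and with the replicate block all 129 member results kept their call. With 3 samples a group, depth limits CA9, with 16 to 47 counts in CRLM1-OE, and LOX, which was at or under the floor in every sample and is given no fold.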
